A study of Homo sapiens with 4 samples.

Results

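The autophagy machinery examined here is a set of 32 genes, chosen by name with earlier results of these data known. It holds 5 genes of initiation, 5 of ATG9 vesicles, ATG2 lipid transfer and their WIPI partners, and 10 enzymes and scaffolds of ATG8 conjugation. The others are 5 ATG8 proteins, 5 cargo receptors and 2 fusion factors. All 32 are rows of a count table of 61267 genes. The RNA came from SU-DHL-2, an established human line of diffuse large B-cell lymphoma, labelled wild type. The cells, grown in medium with serum and antibiotics, were given either solvent (vehicle, 2 libraries) or Spautin-1 at 10 µM for 36 h (2 libraries). Spautin-1 is a small molecule known as an inhibitor of the deubiquitinases USP10 and USP13 that lowers Beclin-1 and so restrains autophagy. The labels name no separate cultures, so p-values measure the spread between these 4 libraries, which may be technical. With 2 libraries against 2, an exact two-sided permutation test of a single value cannot give less than p = 0.33.

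Macroautophagy encloses cytoplasm in a double membrane that later fuses with lysosomes. The ULK kinase complex starts it, ATG9 vesicles and the lipid-transfer protein ATG2 feed the growing membrane, and a conjugation system resembling that of ubiquitin links ATG8 proteins to phosphatidylethanolamine. Cargo receptors bind ubiquitinated or damaged material with one part of the protein and ATG8 with another. In B cells the pathway is known for its part in the survival of memory and plasma cells.

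The libraries held between 34115420 and 38362526 counts, and between 25154 and 25683 genes had at least 1 read. All 10 B-lineage markers examined and all 5 markers of the activated B-cell type had a mean of at least 1 CPM (the count scaled to the TMM-adjusted size of its library), whereas the 5 T-cell markers summed to between 0.746 and 1.1 CPM. Of the 5 myeloid markers 1 reached a mean of 1 CPM, and the myeloid sum lay between 9.18 and 12.1 CPM in vehicle and between 9.9 and 10.7 CPM in Spautin-1. The 5 stromal or epithelial markers summed to between 45.8 and 52.0 CPM in vehicle and between 51.3 and 55.2 CPM in Spautin-1, nearly all of it EPCAM. The B-lineage sum itself was higher with Spautin-1, at 1200.4 to 1231 CPM against 825 to 907 CPM. The sum of the activated B-cell markers was 632 and 634 CPM in vehicle and 1256 and 1287 CPM in Spautin-1. CD44 stood at 263 and 252 CPM in vehicle and 709 and 698 CPM in Spautin-1. PRDM1, a regulator of plasma cell formation, stood at 18.4 and 19.0 CPM against 114 and 127 CPM. IRF4 and BCL2 were also higher in both treated libraries, while BATF overlapped between groups (268 and 297 CPM against 282 and 302 CPM). The part of these markers' changes in the values below was not tested. In bulk RNA, fewer cells of a kind and less RNA per cell cannot be told apart.

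Autophagy mRNAs moved in both directions, and the changes were spread over the roles. NBR1, a cargo receptor, rose 2.12-fold, and the counts of GABARAPL1, WIPI1, ATG10, OPTN and ATG12 rose between 1.35-fold and 1.8-fold. Those of ATG2A, ATG7, ATG101 and SQSTM1 fell between 1.36-fold and 1.69-fold. Counts were compared by the edgeR quasi-likelihood test with Benjamini-Hochberg adjustment over 18368 genes, and a gene was called where adjusted p was under 0.05. Of the 32 members 31 passed the filter on low counts, and of these 6 were called higher and 4 lower. Among all genes tested, 22.0% were called, 11.5% higher and 10.5% lower. The members' median log2 fold change was 0.15, against -0.01 over all genes tested. In 22 of the 31 tested members the groups did not overlap, 15 higher and 7 lower, where 61.4% of all tested genes were separated in this way (30.8% higher and 30.6% lower).

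**Figure D1:**
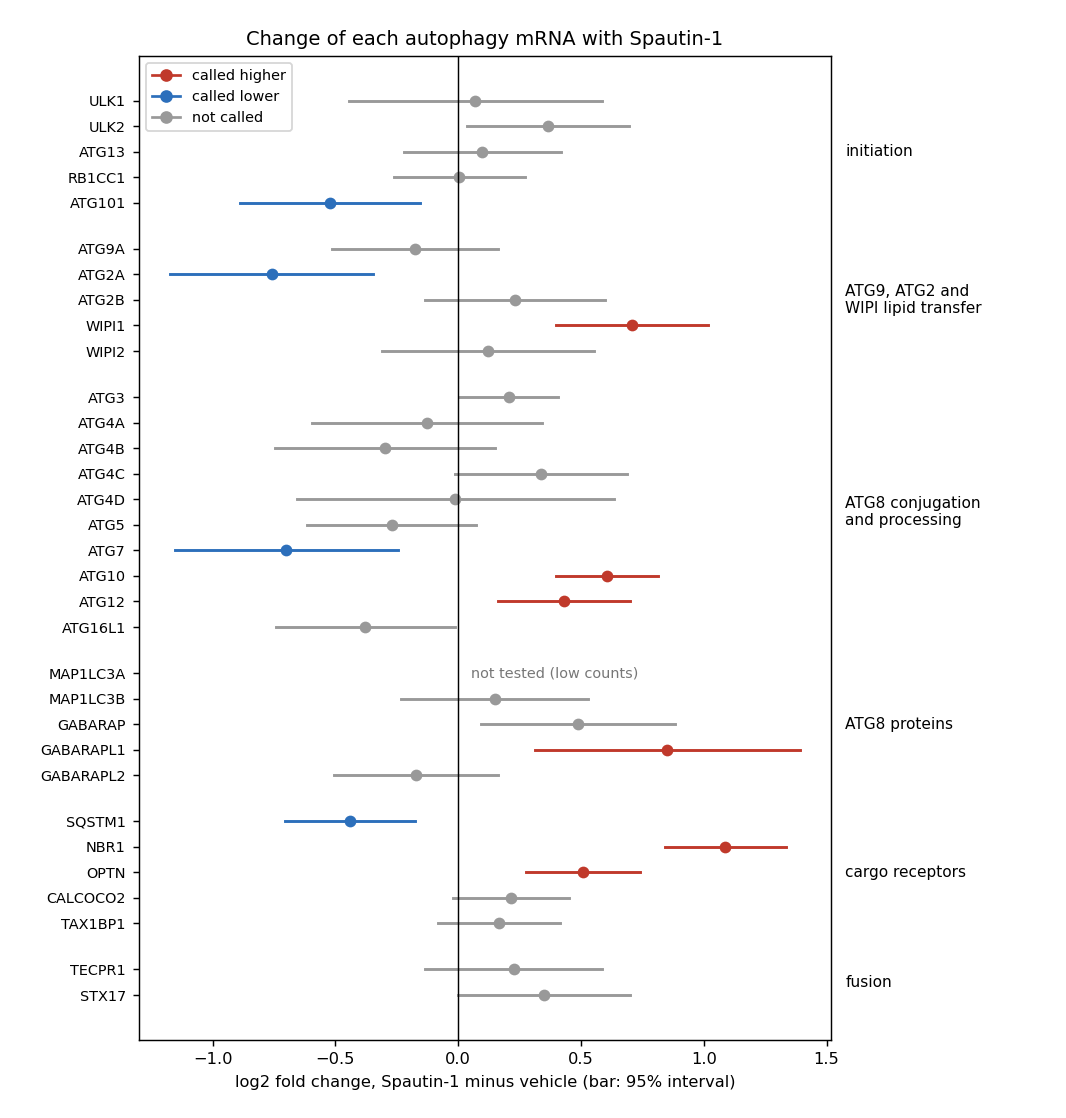
Log2 fold change of each autophagy gene, Spautin-1 minus vehicle, with its 95% interval from the edgeR fit (unadjusted), by role. Red and blue mark the 6 genes called higher and the 4 called lower. Every role except fusion holds at least 1 called gene. For ATG10, WIPI1 and ATG7 all reads could be shared with overlapping genes, and how many are shared is not known.

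The way in which overlapping genes were counted bears on these values. Of the 32 members 18 share exonic bases with another gene in the table. In 872 pairs in which all exons of a gene lie inside those of a gene on the opposite strand, the inside gene had reads in 566 pairs and exceeded the enclosing gene in 0 pairs in any library. In 1258 such pairs on the same strand the numbers were 789 and 0, and the 1 pair of genes with identical exons had equal counts in all 4 libraries. Reads in an overlap thus appear under both genes, on whichever strand they lie, and cannot be assigned to either. The smallest share of a member's counts that must be its own was obtained by taking every count of its overlapping genes as shared. This share was 100% for 14 members and over 90% for OPTN, GABARAPL1, ATG3, TAX1BP1, TECPR1 and ATG101. It was 81.4% for ATG13, 78.8% for STX17, 59.3% for MAP1LC3B, 58.6% for SQSTM1, 52.1% for NBR1, 12.7% for ATG12, 1.6% for GABARAP and 0 for ATG10, WIPI1, ATG7, ATG4D and ATG9A. Of the 10 called genes 4 (NBR1, GABARAPL1, OPTN and ATG2A) kept separate groups at any share of the overlap, that is, even if all shared reads belonged to the other gene in the libraries of 1 group and none in those of the other.

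**Figure D2:**
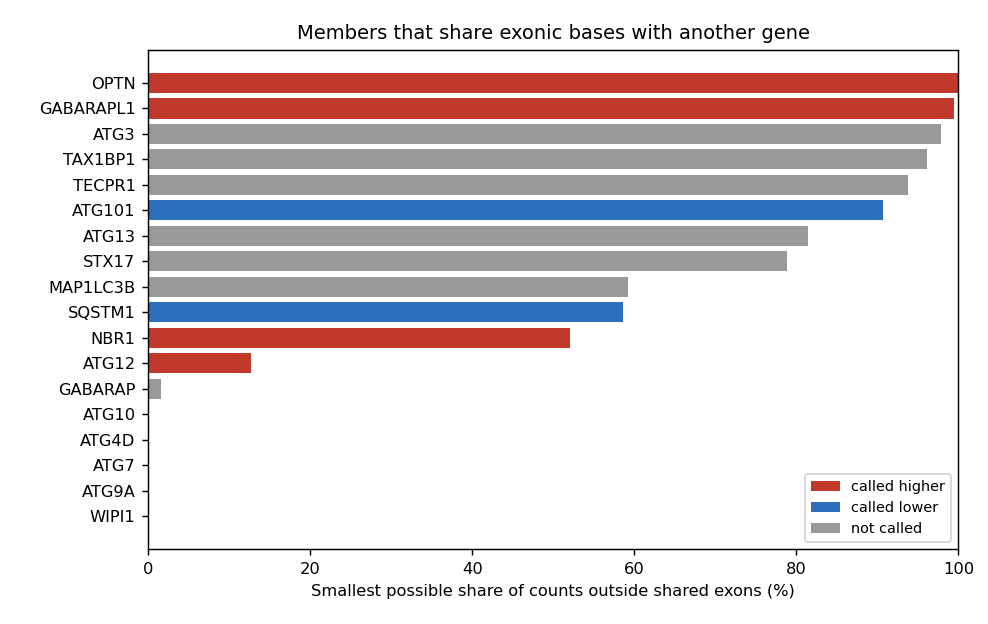
Smallest possible share of each member's counts, over the 4 libraries, that does not come from exons shared with another gene, for the 18 members with such an overlap. OPTN and GABARAPL1 lie above 99%, NBR1 and SQSTM1 between 50% and 60%, and ATG10, WIPI1 and ATG7, all called, at 0.

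Promoter sequences were matched by symbol for 28 of the 32 members (RefSeq, GRCh38.p14, 250 bases before to 50 after each listed start). The 2 genes with the largest rise and the largest fall are shown with the bases before their start that hold no exon of the gene, NBR1 at its upstream start (chr17:43170159-43170408, plus strand) and ATG2A (chr11:64917210-64917459, minus strand), written 5′ to 3′ in the direction of transcription.
NBR1: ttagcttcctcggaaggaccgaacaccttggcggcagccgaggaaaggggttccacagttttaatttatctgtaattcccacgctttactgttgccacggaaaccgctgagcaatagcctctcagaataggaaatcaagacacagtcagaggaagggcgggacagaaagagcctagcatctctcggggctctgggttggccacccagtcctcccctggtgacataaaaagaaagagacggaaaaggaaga
ATG2A: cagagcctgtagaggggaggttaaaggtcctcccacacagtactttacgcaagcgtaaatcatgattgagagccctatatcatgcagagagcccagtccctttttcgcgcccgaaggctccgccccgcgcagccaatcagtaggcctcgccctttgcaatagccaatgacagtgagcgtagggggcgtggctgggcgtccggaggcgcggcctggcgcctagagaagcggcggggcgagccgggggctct
Neither window holds any of the 4 motifs searched on both strands, so no letter is in capitals. The window before the NBR1 start had a GC content of 51.6% and that before the ATG2A start 62.4%. The NBR1 window lies inside the span of ENSG00000267002, the gene on the opposite strand that shares 463 exonic bases with NBR1.

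The 4 motifs are those of regulators known to act on autophagy or stress genes. A member was counted once if any of its windows matched, whereas the share of all genes counts each window. These shares are thus not in the same unit. CACGTG, the E-box core bound by the lysosome and autophagy regulator TFEB, was found in the windows of 1 of 28 members, ATG3, against 7.26% of 35116 promoter windows of all genes. The longer TCACGTGA, which contains CACGTG, was found among the members in ATG3, 4 bases after its start, against 0.98% of all windows. TGACNNNGC, the core of the NRF2 element, was found in ATG101, CALCOCO2, MAP1LC3B and TECPR1, 4 of 28, against 13.3% of all windows. TTGCATCA, the form bound by ATF4 with CEBP partners, was found in 0 of 28 members and in 0.866% of all windows. The matches in ATG101, the only called member with one (chr12:52069848-52069877, plus strand), and in ATG3, the member with the E-box (its match before the start, chr3:112561963-112561992, minus strand), are shown with the match in capitals.
ATG101: tgtgcttctgTGACTACGCggatgttgtgg
ATG3: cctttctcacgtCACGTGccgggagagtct
The ATG101 match begins at position -120 from the listed start and the ATG3 match at position -18. The 250 bases before these listed starts hold 217 exonic bases of ATG101 and 84 of ATG3. Both matches lie inside the span of the counted gene, so they are not upstream of all its annotated exons. A match describes letters in a window and not a bound site.

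Of the 5 initiation genes 1 was called, ATG101, which was lower. ATG101 (chromosome 12, 52069246 to 52077495, GRCh38), which stabilises ATG13 in the ULK complex, stood at 47.9 and 71.8 CPM in vehicle and at 39.5 and 43.8 CPM in Spautin-1. The Spautin-1 libraries were lower, but the vehicle libraries lay farther apart than the Spautin-1 libraries lay from the nearer of them. ATG101 fell by 0.52 ± 0.17 on the log2 scale, where ± gives the standard error here and for every log2 fold change (edgeR adjusted p = 0.0436). Without vehicle replicate 2 it was at -0.20 (edgeR adjusted p = 0.193), and without Spautin-1 replicate 1 or 2 adjusted p was 0.163 or 0.0883 by edgeR. ULK1 and ULK2 are the kinases of the complex. ULK2 stood at 13.5 and 15.1 CPM in vehicle and 18.3 and 18.6 CPM in Spautin-1 and was not called (0.37 ± 0.15, edgeR adjusted p = 0.106, 95% interval from 0.04 to 0.69). Both treated libraries lay above both vehicle libraries for ULK2, and without vehicle replicate 2 it was called higher (0.45, edgeR adjusted p = 0.028). ULK1, at 3.94 to 5.12 CPM in the 4 libraries, overlapped between groups. RB1CC1 (FIP200), the scaffold on which the complex assembles, lay between 63.9 and 76.6 CPM, and its log2 fold change was 0.00 with a 95% interval from -0.26 to 0.27. ATG13, the adaptor that joins the kinase to RB1CC1, lay between 17.8 and 20.8 CPM. The median log2 fold change of the 5 genes was 0.07.

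In the lipid-transfer group ATG2A was called lower and WIPI1 higher. ATG2 proteins bridge the endoplasmic reticulum and the growing membrane and carry lipids between them. ATG2A (chromosome 11, 64894546 to 64917209) stood at 12.7 and 17.2 CPM in vehicle and at 9.44 and 8.23 CPM in Spautin-1. Both Spautin-1 libraries lay below both vehicle libraries, and ATG2A shares no exonic base with another gene. It fell 1.69-fold, with a log2 fold change of -0.76 ± 0.19 (edgeR adjusted p = 0.0139). Without Spautin-1 replicate 2 the call was lost (-0.66, edgeR adjusted p = 0.12), and without vehicle replicate 2 the value was -0.52 (adjusted p = 0.0299). ATG2B stood at 21.1 and 15.6 CPM in vehicle and 20.4 and 22.7 CPM in Spautin-1, so its groups overlapped (0.23 ± 0.17, edgeR adjusted p = 0.363). Without vehicle replicate 1, in a fit with a single vehicle library, whose spread is taken to be that of the treated pair, ATG2B was called higher at 0.46 (edgeR adjusted p = 0.0119). Within each library the ratio of ATG2A to ATG2B, in RPKM (CPM per kilobase of exon), was 1.09 and 2.01 in vehicle and 0.842 and 0.659 in Spautin-1. The ratio was lower in both Spautin-1 libraries, by 0.99 on the log2 scale, with an exact two-sided permutation p of 0.33, the smallest that 2 against 2 can give.

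WIPI proteins read the phosphatidylinositol 3-phosphate that marks the site of autophagosome formation. WIPI1 (chromosome 17, 68420948 to 68457513) stood at 16.5 and 15.9 CPM in vehicle and 25.3 and 27.6 CPM in Spautin-1. The groups were well apart, and the vehicle libraries nearly equal. Its log2 fold change was 0.71 ± 0.14 (edgeR adjusted p = 0.00431), and without Spautin-1 replicate 2 it was 0.65 (edgeR adjusted p = 0.0719). WIPI1 shares 829 exonic bases with ARSG, a sulfatase gene on the opposite strand that was itself called higher (0.67 ± 0.17, edgeR adjusted p = 0.0158), and 127 with ENSG00000267009 (0.06, adjusted p = 0.736). Over the 4 libraries WIPI1 held 3091 counts, ARSG 2091 and ENSG00000267009 37077. How much of the WIPI1 level or change comes from reads shared with either gene was not tested. WIPI2, the form that recruits ATG16L1, was at 6.31 and 6.37 CPM in vehicle and 7.41 and 6.38 CPM in Spautin-1 and was not called (0.12 ± 0.20). ATG9A, the lipid scramblase of the vesicles, was at 15.1 and 17.0 CPM in vehicle and 14.05 and 14.4 CPM in Spautin-1, not called (-0.18 ± 0.15, edgeR adjusted p = 0.463), and all of its counts could be shared with ENSG00000284820, a gene on the same strand.

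**Figure D3:**
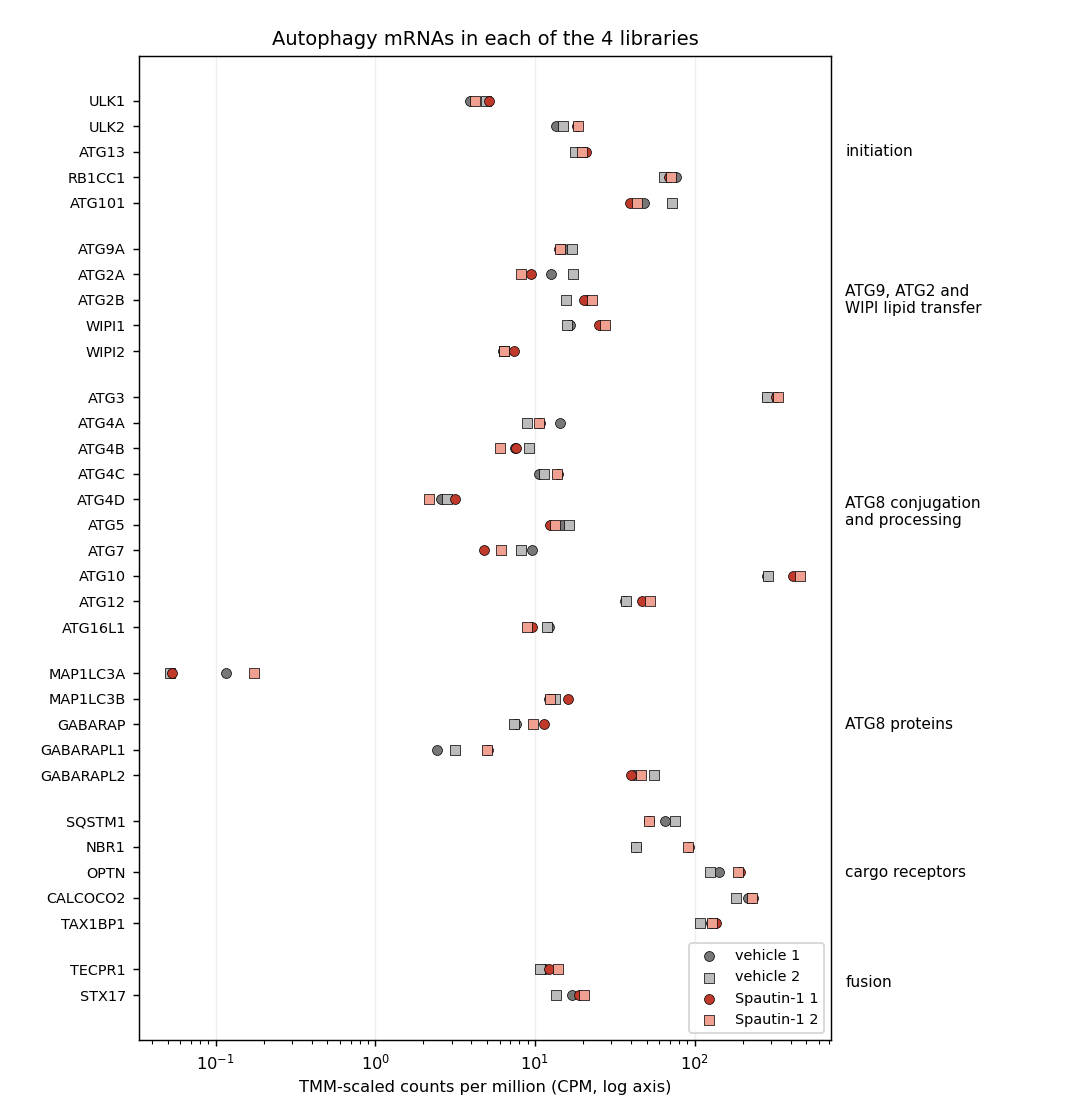
TMM-scaled CPM of the 32 genes in each of the 4 libraries (log axis), by role; circles are replicate 1 and squares replicate 2. NBR1 shows the widest gap between groups, at about 43 CPM in vehicle and 90 to 92 CPM in Spautin-1, and MAP1LC3A lies below 0.2 CPM in every library.

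Among the conjugation genes 2 of 10 were called higher and 1 lower, and the median log2 fold change was -0.07. ATG7 is the E1-like enzyme that activates both ATG12 and the ATG8 proteins. ATG7 (chromosome 3, 11272309 to 11557665) stood at 9.62 and 8.13 CPM in vehicle and at 4.8 and 6.12 CPM in Spautin-1, lower in both treated libraries. Its log2 fold change was -0.70 ± 0.21 (edgeR adjusted p = 0.0312), and the call was lost without Spautin-1 replicate 1 (-0.55, adjusted p = 0.244) or replicate 2 (-0.88, adjusted p = 0.0539). ATG7 shares 1597 exonic bases with VGLL4, which holds 1250 counts against 1040 for ATG7 over the 4 libraries and had a log2 fold change of -0.51 (edgeR adjusted p = 0.0608). The part of VGLL4 reads in the ATG7 value was not tested.

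ATG10 is the E2-like enzyme that passes ATG12 to ATG5. Its row (chromosome 5, 81972023 to 82276857) stood at 286 and 287 CPM in vehicle and at 416 and 457 CPM in Spautin-1, which per length would make it the most abundant of the 32 genes, at a mean of 66.4 RPKM. ATG10 shares 374 exonic bases with RPS23, a ribosomal protein gene on the opposite strand. ATG10 held 9932 and 11101 counts in vehicle and 15596 and 15849 in Spautin-1, between 81.2% and 87.2% of the RPS23 count in the same library. The 2 rows rose alike: the log2 fold change was 0.61 ± 0.10 for ATG10 (edgeR adjusted p = 0.000964) and 0.52 ± 0.09 for RPS23 (edgeR adjusted p = 0.00204). Reads of the 2 genes cannot be told apart in this overlap, so neither the level nor the rise of ATG10 can be attributed to ATG10.

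ATG12, the ubiquitin-like protein that is joined to ATG5, was called higher. ATG12 (chromosome 5, 115828200 to 115841837) stood at 36.8 and 36.9 CPM in vehicle and 47.1 and 52.4 CPM in Spautin-1. The vehicle libraries were almost equal and both treated libraries were above them. Its log2 fold change was 0.43 ± 0.12 (edgeR adjusted p = 0.0263), with the call lost without Spautin-1 replicate 1 (0.49, adjusted p = 0.127) or replicate 2 (0.36, adjusted p = 0.326). ATG12 shares 185 exonic bases with AP3S1, an adaptor subunit gene on the opposite strand with a log2 fold change of 0.30 (edgeR adjusted p = 0.1). With all AP3S1 reads subtracted, chosen after seeing the data, ATG12 was at 1.39 (edgeR adjusted p = 0.0184). Only 135 and 90 counts were then left in vehicle, and 185 and 390 in Spautin-1, the most in replicate 2. The groups of ATG12 did not stay apart at every share of the overlap.

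The other 7 conjugation and processing genes were not called. ATG3, the E2-like enzyme that transfers ATG8 to lipid, had the highest mean level per length after ATG10, 50.1 RPKM, and stood at 284.2 and 284.5 CPM in vehicle and 324 and 332 CPM in Spautin-1. Its groups did not overlap, and the log2 fold change was 0.21 ± 0.09 (edgeR adjusted p = 0.134, 95% interval from 0.00 to 0.41). ATG5 and ATG16L1 form with ATG12 the complex that directs lipidation. ATG16L1 stood at 12.3 and 11.9 CPM in vehicle and 9.6 and 8.98 CPM in Spautin-1 (-0.38 ± 0.17, edgeR adjusted p = 0.129), and ATG5 at 14.7 and 16.4 CPM against 12.4 and 13.4 CPM (-0.27 ± 0.16, edgeR adjusted p = 0.252). Both genes lay lower in both Spautin-1 libraries, while the counts of ATG12, their partner, lay higher. The direction of ATG12 is not fixed, since only 12.7% of its counts must be its own. The ATG4 proteases, which trim ATG8 and release it from lipid, had log2 fold changes from -0.30 (ATG4B) to 0.34 (ATG4C). ATG4A overlapped between groups and was at 14.4 and 8.93 CPM in the vehicle libraries. The ratio of ATG4C to ATG4D was 3.01 and 2.99 in vehicle and 3.25 and 4.63 in Spautin-1 (exact permutation p = 0.33), and that of ATG4A to ATG4B overlapped between the groups. ATG4D rested on 75 to 118 counts a library, all of which could be shared with KRI1.

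Among the 4 tested ATG8 genes 1 was called, GABARAPL1, which was higher. GABARAPL1 (chromosome 12, 10212458 to 10223128) stood at 2.42 and 3.16 CPM in vehicle and at 5.06 and 5.02 CPM in Spautin-1. These levels rest on 84 and 122 counts against 190 and 174 counts, and the groups were apart. GABARAPL1 rose 1.8-fold, with a log2 fold change of 0.85 ± 0.25 (edgeR adjusted p = 0.0284). Its call was lost on leaving out vehicle replicate 1 (0.67, adjusted p = 0.0631) or either Spautin-1 library (0.83 without replicate 1 and 0.87 without replicate 2, adjusted p = 0.0967 and 0.0994), though not vehicle replicate 2 (1.06, adjusted p = 0.00301). GABARAP stood at 7.63 and 7.4 CPM in vehicle and 11.4 and 9.7 CPM in Spautin-1. Its log2 fold change of 0.49 ± 0.18 missed the threshold (edgeR adjusted p = 0.0748), and passed with an offset for GC content (adjusted p = 0.0434) and without vehicle replicate 1 (adjusted p = 0.0493). All but 1.6% of the GABARAP counts could be shared with 2 overlapping genes.

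GABARAPL2 remained the most abundant ATG8 mRNA per length, at 13.8 and 18.5 RPKM in vehicle and 13.2 and 15.4 RPKM in Spautin-1. Its groups overlapped (-0.17 ± 0.15, edgeR adjusted p = 0.465). Without vehicle replicate 1 it was called lower at -0.37 (edgeR adjusted p = 0.00399). The ratio of GABARAPL1 to GABARAPL2, in RPKM, was 0.0433 and 0.042 in vehicle and 0.0944 and 0.0803 in Spautin-1, higher in both treated libraries by 1.03 on the log2 scale (exact permutation p = 0.33). MAP1LC3B, the LC3 form most used as an autophagosome marker, stood at 12.3 and 13.4 CPM in vehicle and 16.1 and 12.4 CPM in Spautin-1, with overlapping groups (0.15 ± 0.18, edgeR adjusted p = 0.596). MAP1LC3A held 4, 2, 2 and 6 counts and was not tested. The near-identical copies MAP1LC3B2 and GABARAPL3 held at most 10 and 2 counts in any library. The sources used here do not say how reads that match more than 1 place were treated.

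Of the 5 cargo receptors 2 rose and 1 fell, and the groups were apart in all 5, where 22.0% of all tested genes were called and 61.4% had groups apart. NBR1 (chromosome 17, 43170481 to 43211689), a receptor for ubiquitinated cargo that was named as a neighbour of BRCA1, stood at 43.0 and 43.0 CPM in vehicle and at 92.4 and 90.3 CPM in Spautin-1. The 2 libraries of each group were almost the same, and the groups were far apart. NBR1 rose 2.12-fold, with a log2 fold change of 1.09 ± 0.11 (edgeR adjusted p = 5.6e-05), the largest change in either direction among the members. It was called with each library left out, with values from 1.06 to 1.11. ENSG00000267002, its opposite-strand partner, fell (-0.55 ± 0.14, edgeR adjusted p = 0.0164). If every read of that gene in Spautin-1 and none in vehicle is taken as shared, NBR1 still had at least 64.9 and 65.8 CPM of its own in Spautin-1, at least 1.52-fold higher than in vehicle. With all reads of the partner subtracted in every library, chosen after seeing the data, the NBR1 log2 fold change was 3.74 (edgeR adjusted p = 0.00073), since little of the vehicle count was then left.

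SQSTM1 (p62), which shares its domain plan with NBR1 and is itself degraded by autophagy, went the other way. SQSTM1 (chromosome 5, 179806398 to 179838078) stood at 65.3 and 75.8 CPM in vehicle and at 51.7 and 52.1 CPM in Spautin-1. Both treated libraries lay below both vehicle libraries, with a log2 fold change of -0.44 ± 0.12 (edgeR adjusted p = 0.0217). The call was lost without Spautin-1 replicate 1 (adjusted p = 0.169) or replicate 2 (adjusted p = 0.197), at values near -0.44 each time. It shares 1582 exonic bases with MRNIP (-0.21, edgeR adjusted p = 0.341) and 105 with MGAT4B (-0.01, adjusted p = 0.973), both on the opposite strand. With all reads of both genes subtracted, again chosen after seeing the data, SQSTM1 was at -0.65 (edgeR adjusted p = 0.00802). If the reads of both genes are removed in vehicle alone, SQSTM1 kept at least 39.8 and 48.0 CPM there. That is below the 51.7 and 52.1 CPM of Spautin-1, so the direction is not fixed.

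The order of SQSTM1 and NBR1 per length was thereby exchanged. The ratio of SQSTM1 to NBR1 in RPKM was 1.69 and 1.97 in the vehicle libraries and 0.624 and 0.643 in the Spautin-1 libraries. The mean log2 ratio was 0.87 ± 0.15 in vehicle and -0.66 ± 0.03 in Spautin-1 (SD, n = 2 each; exact permutation p = 0.33, the smallest possible). This difference of -1.53 was the widest among the 10 pairs of related members compared. With a smallest possible p of 0.33, none of the 10 pairs could pass a test. Because SQSTM1 and NBR1 both overlap other genes, the exact ratios carry that limit.

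**Figure D4:**
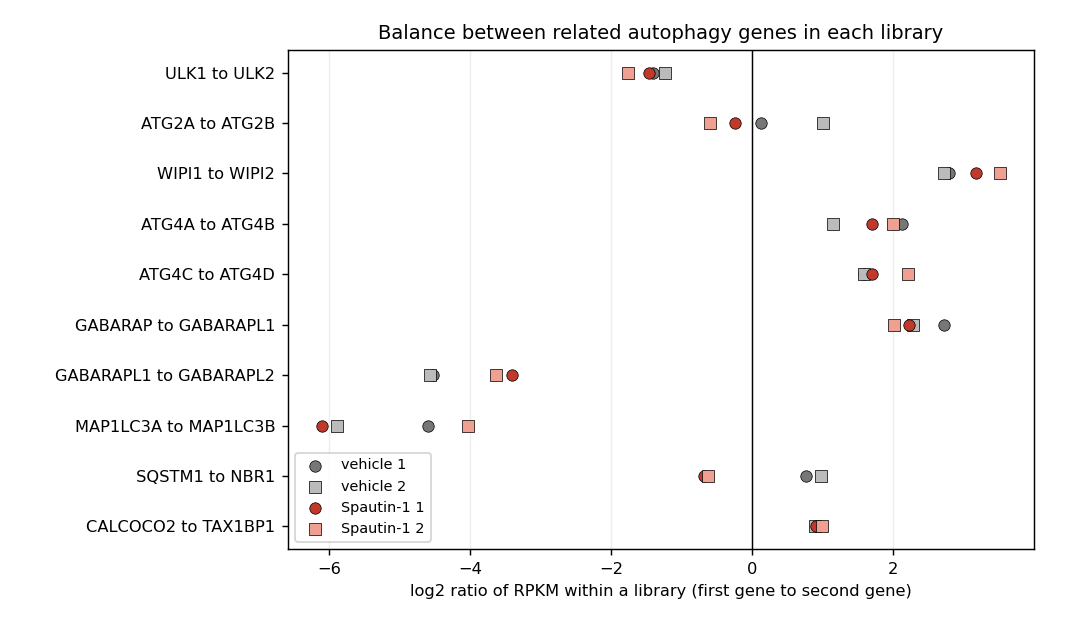
Log2 ratio of RPKM between 2 related genes within each library, for 10 pairs. The SQSTM1 to NBR1 ratio lies above 0 in both vehicle libraries and below 0 in both Spautin-1 libraries, as does ATG2A to ATG2B; MAP1LC3A to MAP1LC3B scatters because MAP1LC3A held at most 6 counts.

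OPTN, a receptor for damaged mitochondria and bacteria, was the other receptor called higher. OPTN (chromosome 10, 13099449 to 13138308) stood at 142 and 125 CPM in vehicle and at 193 and 187 CPM in Spautin-1, with no overlap between the groups. Its log2 fold change was 0.51 ± 0.11 (edgeR adjusted p = 0.00567), and the call was lost without Spautin-1 replicate 1 (0.47, adjusted p = 0.0726). CALCOCO2 (NDP52), which also acts on bacteria and mitochondria, stood at 216 and 182 CPM in vehicle and 231 and 231 CPM in Spautin-1 (0.21 ± 0.11, edgeR adjusted p = 0.182). TAX1BP1, a relative of CALCOCO2, stood at 127 and 109 CPM in vehicle and 136 and 129 CPM in Spautin-1 (0.17 ± 0.11, edgeR adjusted p = 0.332). Neither was called with all libraries. Both were called higher without vehicle replicate 1, the library in which each stood nearer to the Spautin-1 level (0.34 and 0.28, edgeR adjusted p = 0.000897 and 0.0132). The ratio of CALCOCO2 to TAX1BP1 lay between 1.845 and 1.97 over the 4 libraries.

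The 2 fusion factors were not called. STX17, the syntaxin that joins closed autophagosomes to lysosomes, stood at 17.1 and 13.6 CPM in vehicle and 18.9 and 20.2 CPM in Spautin-1 (0.35 ± 0.16, edgeR adjusted p = 0.145). TECPR1, a tether on lysosomes, stood at 11.6 and 10.8 CPM in vehicle and 12.3 and 13.9 CPM in Spautin-1 (0.23 ± 0.17, edgeR adjusted p = 0.367). Each gene lay higher in both treated libraries by less than the test could call. Without vehicle replicate 1, STX17 was called higher at 0.52 (edgeR adjusted p = 0.00615).

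Set side by side, the median log2 fold changes of the tested genes were 0.07 for initiation (1 of 5 called), 0.12 for lipid transfer (2 of 5), -0.07 for conjugation and processing (3 of 10), 0.32 for the ATG8 proteins (1 of 4), 0.21 for the cargo receptors (3 of 5) and 0.29 for the fusion factors (0 of 2). These medians lay between -0.07 and 0.32, against -0.01 over all genes tested, and no test of a difference between roles was made. Over all genes tested 22.0% were called. With a library left out, the conjugation median ran from -0.19 (without Spautin-1 replicate 1) to 0.065 (without vehicle replicate 1), so its sign is not settled, and the median of lipid transfer ran from -0.0019 to 0.16. The initiation median then ran from 0.011 to 0.15, that of the ATG8 proteins from 0.14 to 0.47, that of the cargo receptors from 0.10 to 0.34 and that of the fusion factors from 0.18 to 0.40.

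The count of called members changed with the libraries in the fit, and so did the count over all genes tested, whose range is given in the last section. Without Spautin-1 replicate 1, 3 members were called higher and 1 lower, and without Spautin-1 replicate 2, 3 and 0. In such a fit the lone library is assumed to vary like those of the other group. Without vehicle replicate 1, 10 were higher and 5 lower, and without vehicle replicate 2, 7 and 3. Among the 10 called genes, NBR1 and ATG10 were called in every one of these 4 fits, and all 10 had the same sign in all 4.

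**Figure D5:**
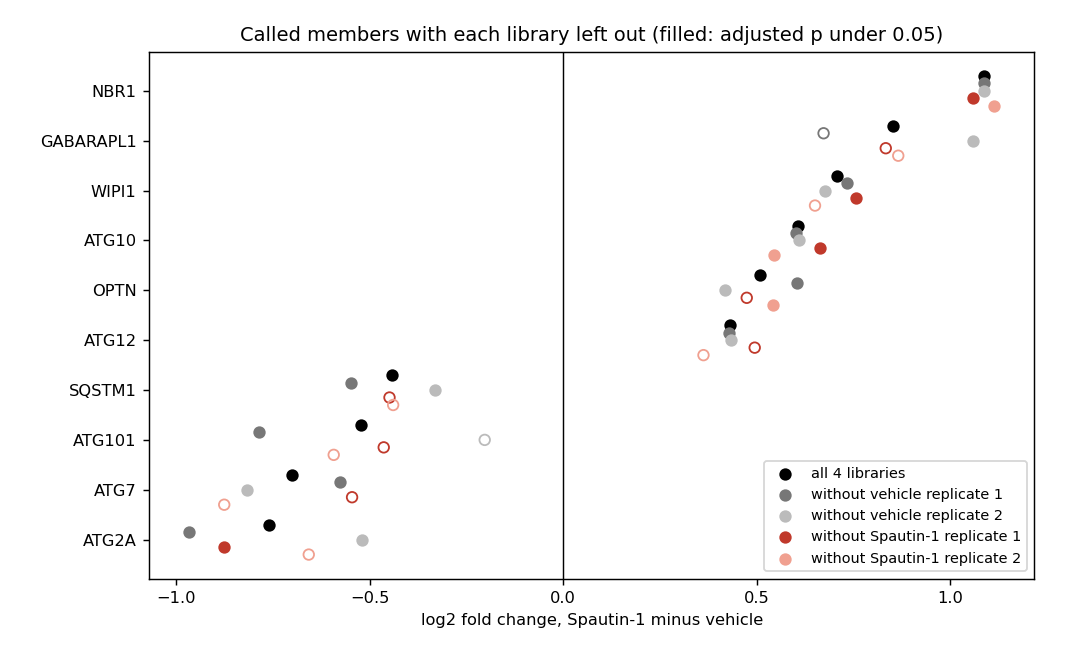
Log2 fold change of the 10 called genes in all 4 libraries (black) and with each library left out; filled points have an edgeR adjusted p under 0.05 and open points do not. NBR1 stays between 1.06 and 1.11 and ATG10 between 0.55 and 0.66 with every point filled, while ATG101 runs from -0.79 to -0.20.

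GC content differed between the members called lower and those called higher. The 4 members called lower had a median GC content of 60.5% over their GENCODE 29 transcripts (47.9% to 63.1%), and the 6 called higher 47.9% (40.2% to 52.6%). Over all genes the same order held, at 52.1% for genes called lower and 47.6% for genes called higher. The log2 fold change itself had a Pearson correlation with GC content of -0.10 over 16502 genes and of -0.36 over 31 members. The vehicle libraries themselves differed along GC content: across 16502 genes, which are not independent replicates, the log2 difference of vehicle replicate 2 from replicate 1 had a Pearson correlation of 0.26 with GC content, against 0.02 for the Spautin-1 libraries. With a per-library offset for GC content all 10 called members were called again in the same direction, and SQSTM1 was at -0.32 and ATG12 at 0.35. The part of GC content in the members' changes was not tested further.

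Other genes of the pathway, 70 in 5 lists, also moved both ways: of 63 tested, 12 were called higher and 6 lower, with a median log2 fold change of 0.10. Over all genes tested 22.0% were called, 11.5% higher and 10.5% lower, and the counts of the single lists below stand against the same shares. Without Spautin-1 replicate 1 these numbers were 6 and 1, without Spautin-1 replicate 2 they were 6 and 0, and without vehicle replicate 1 they were 16 and 10. Upstream regulators changed in 3 genes upward and 2 downward of 19. DDIT4 (REDD1), a stress-induced inhibitor of mTORC1, stood at 24.5 and 26.7 CPM in vehicle and 61.0 and 72.8 CPM in Spautin-1, a 2.61-fold rise (edgeR adjusted p = 3.39e-05). RPTOR, the mTORC1 subunit that binds substrates, fell from 23.7 and 26.8 CPM to 16.9 and 16.5 CPM (-0.60 ± 0.14, edgeR adjusted p = 0.0119). Leaving out either Spautin-1 library ended the RPTOR call (adjusted p = 0.0813 without replicate 1 and 0.137 without replicate 2), while DDIT4 was called with each library left out.

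Lysosomal fusion genes moved both ways, 3 up and 4 down of 13. EPG5, a tether that gives specificity to fusion, stood at 4.66 and 2.9 CPM in vehicle and at 10.7 and 7.82 CPM in Spautin-1, a log2 fold change of 1.30 ± 0.26 (edgeR adjusted p = 0.00406) that ran from 0.99 without vehicle replicate 2 to 1.68 without vehicle replicate 1. VAMP8, the lysosomal partner of STX17, fell from 124 and 146 CPM to 98.1 and 96.3 CPM (-0.47 ± 0.11, edgeR adjusted p = 0.0116), with the call lost without Spautin-1 replicate 1 (adjusted p = 0.0787) or replicate 2 (adjusted p = 0.141). Among 15 tested organelle receptors 3 rose and 0 fell (edgeR; 5 had an unadjusted p under 0.05 in either direction). This count was 5 and 2 without vehicle replicate 1, 2 and 0 without vehicle replicate 2, and 1 and 0 without either Spautin-1 library or when scaled by library size alone. The endoplasmic reticulum receptor CCPG1 rose 1.72-fold, from 261 and 212 CPM to 416 and 396 CPM (edgeR adjusted p = 0.000538), with all of its counts open to sharing with 4 overlapping genes. Of 8 tested genes of membrane supply and sealing 1 was higher, CHMP2A of ESCRT-III, at 141 and 171 CPM in vehicle and 203 and 212 CPM in Spautin-1 (0.41 ± 0.11, edgeR adjusted p = 0.0229). Its call was lost without Spautin-1 replicate 1 (adjusted p = 0.104) or replicate 2 (adjusted p = 0.184). In the Beclin VPS34 kinase complex 2 of 8 were called, both higher, UVRAG and RUBCN. UVRAG, a subunit that directs the complex to endosomes and maturing autophagosomes, stood at 26.1 and 23.6 CPM in vehicle and 44.1 and 46.4 CPM in Spautin-1 (0.86 ± 0.13, edgeR adjusted p = 0.000714). RUBCN, an inhibitor of the complex, stood at 8.32 and 6.26 CPM in vehicle and 11.8 and 10.4 CPM in Spautin-1 (0.60 ± 0.20, edgeR adjusted p = 0.0457). Leaving out vehicle replicate 2 ended the RUBCN call (edgeR adjusted p = 0.12), as did leaving out either treated library (adjusted p = 0.268 and 0.0993 for replicates 1 and 2). The call was also lost under upper quartile scaling (adjusted p = 0.0501) and library size scaling (adjusted p = 0.0574), and all of its counts could be shared with overlapping genes.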

How the data were processed

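The authors deposited raw counts of reads per gene with gene coordinates and exonic length, per the file headers. Trimmomatic 0.36, featureCounts (Subread 1.5.1), edgeR 3.12.1 and build GRCh38 are named in the submitters' processing notes. Stranded mRNA libraries were made, per the labels' protocols. Not given in the sources used here are the aligner, the handling of reads with several matches, the strand setting and the annotation release.

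Counts were filtered by group (filterByExpr, minimum count 10, minimum total 15), scaled by TMM and tested two-sided in edgeR 4.0.16 (R 4.3.3) without a replicate block, with 2 residual degrees of freedom. Same-numbered libraries did not deviate together (correlation 0.00 over 18368 genes). SE is the absolute log2 fold change divided by the square root of F. Overlaps were found with bedtools 2.31.1. GC content came from GENCODE 29 transcripts. Members, roles, pairs, motifs and lists were chosen with earlier results of these data known. Every member is named. Of the uncalled members, the rule gives values for the 3 most abundant per length and the 3 most changed whose mean reached 5 CPM, and of each other list for the called gene with the smallest p in each direction. Values of further uncalled members, by role, were added after they were seen. Alternatives included DESeq2 1.42.0 and limma-voom (limma 3.58.1). The fit was also run on simulated data, of which no result is used here.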

Additional observations from a re-analysis of the deposited data

How the results depend on the processing

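The 6 higher and 4 lower members were called again, all 10 of them, under RLE, upper quartile and library size scaling, without a filter on low counts, with 1 CPM in 2 libraries, by DESeq2, limma-voom and robust empirical Bayes, with the replicate block and with loess offsets on gene length or GC content. With the replicate block 6 members were higher and 4 lower, so it changed no member's call. The replicate numbers share only a number. With a library left out, the number of members called ranged from 3 to 10 higher and from 0 to 5 lower, of all genes from 1067 to 2981 higher and from 780 to 2785 lower, and of the other pathway genes from 6 to 16 higher and from 0 to 10 lower. The role medians then ranged from 0.011 to 0.15 for initiation, from -0.0019 to 0.16 for lipid transfer, from -0.19 to 0.065 for conjugation, from 0.14 to 0.47 for the ATG8 proteins, from 0.10 to 0.34 for the cargo receptors and from 0.18 to 0.40 for the fusion factors. With the reads of overlapping genes subtracted, chosen after seeing the data, 4 members were higher and 3 lower. WIPI1, ATG10, ATG7, ATG9A and ATG4D then had no reads left to test, GABARAP was below the filter, and the ATG8 median was 0.47. Depth limits MAP1LC3A, ATG4D and GABARAPL1 most, and 2 libraries a group limit all calls.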
